A study of Mus musculus with 6 samples.

Results

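Syndecans and glypicans are the cell-surface proteins that carry heparan sulfate, and 9 of their genes were followed in the growth plate cartilage of mouse embryos at E18.5. The genes were taken by symbol from the 15803 genes of the deposited table. They are the 4 syndecan genes Sdc1, Sdc2, Sdc3 and Sdc4 and the 5 glypican genes Gpc1, Gpc2, Gpc3, Gpc4 and Gpc6. Poly(A) RNA was sequenced in 3 libraries labelled WT, from Hnrnpk fl/fl embryos, and in 3 labelled CKO, from Col2a1-Cre;Hnrnpk fl/fl embryos. Both groups thus carry the loxP-flanked Hnrnpk alleles, and Cre recombinase driven by the Col2a1 promoter, which is active in chondrocytes, is present in CKO alone. The labels do not say whether a library is 1 embryo or a pool, and p-values measure the spread between these libraries.

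Heparan sulfate is a long sulfated sugar chain that binds growth factors such as FGFs, Hedgehog proteins, BMPs and Wnts and shapes how far they spread and how well they reach their receptors. Syndecans cross the plasma membrane and pass signals to the actin cytoskeleton through a short cytoplasmic tail, whereas glypicans are held at the outer leaflet by a lipid (GPI) anchor. In the growth plate heparan sulfate is best known for restraining the spread of Indian hedgehog and for its part in FGF signalling. Loss of glypican-3 in humans causes the overgrowth disorder Simpson-Golabi-Behmel syndrome.

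Levels are given as CPM, the reads on a gene as a part of all reads on listed genes of that library, scaled to the same total in each. Whole reads were recovered from these values, 1183743 to 1379674 in WT and 1153871 to 1454094 in CKO. The depth is low, with 1 read worth 0.688 to 0.867 CPM. Genes that averaged 1 CPM or more, 12155 in all and the 9 syndecan and glypican genes among them, were compared with limma on log2(CPM + 1). Fold changes on this scale are understated for genes with few reads. Hnrnpk itself, whose values cover the whole gene and not the floxed exons alone, was at 842, 955 and 944 CPM in the libraries WT 1, 2 and 3, against 759, 949.9 and 780.0 CPM in the libraries CKO 1, 2 and 3. The log2 fold change was -0.14 (SE, standard error, 0.15, limma adjusted p = 0.622), and because the ranges overlap, groups are called by their labels. The study reported loss of the Hnrnpk protein in CKO growth plates at an earlier embryonic stage, by western blot and immunostaining. These RNA values do not measure the protein. All 10 chondrocyte markers had reads in every library, and their summed level was 15020 to 20112 CPM in WT and 3698 to 4601 CPM in CKO. The library CKO 2 stood apart, at least 2-fold from both other CKO libraries in 8.62% of the 5022 genes that averaged 20 CPM or more, against 4.26% for WT 3 and at most 0.458% for the others. Results that rest on CKO 2 are therefore given with and without it.

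Of the 9 genes, 1 passed limma's adjusted p under 0.05, and it was lower in CKO. Among all genes tested 2.6% were called lower and 3.18% higher. The study's own criterion asks for an unadjusted p under 0.05 and a log2 fold change past 1 in either direction, and it was met by Gpc3 and Sdc3, against 10.4% of all genes tested in either direction. The CKO and WT libraries did not overlap for 4 of the 9 genes (Gpc3, Gpc6 and Sdc3 lower in CKO, Sdc1 higher), where 27.7% of all genes tested did not overlap.

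**Figure D1:**
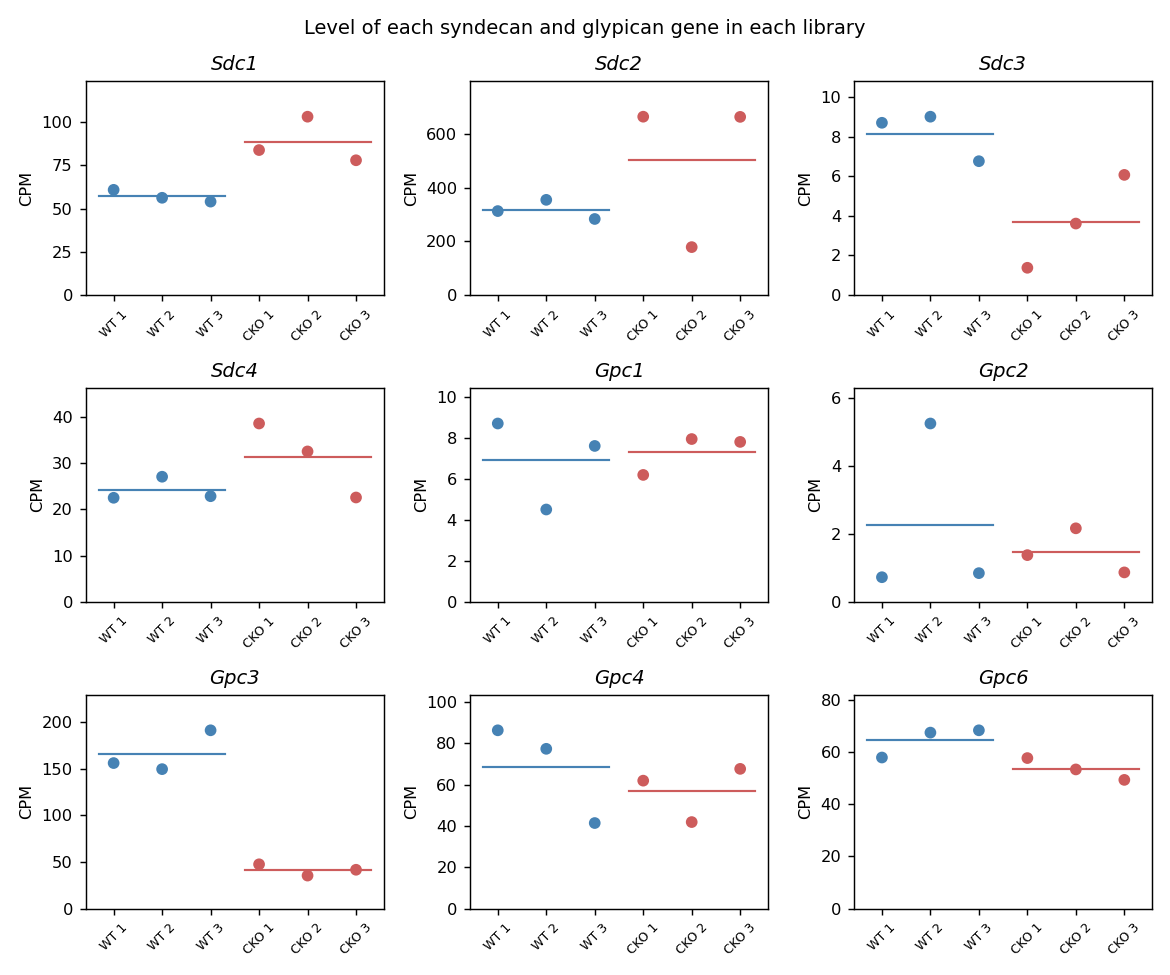
Level of each gene in CPM (linear axis from 0, scaled for each gene) in the 3 WT libraries (blue) and the 3 CKO libraries (red), with a line at each group mean. Gpc3 lies at 149 to 191 CPM in WT and 35.4 to 47.5 CPM in CKO, and Sdc2 in CKO 2 lies below every WT library while CKO 1 and CKO 3 lie above them.

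Glypican-3 modulates Hedgehog, Wnt and IGF-related growth signals at the cell surface, and its gene Gpc3 (ENSMUSG00000055653) fell in CKO. Its level was 156, 149 and 191 CPM in the libraries WT 1, 2 and 3, against 47.5, 35.4 and 41.6 CPM in the libraries CKO 1, 2 and 3. Every CKO library lay far below every WT library, and the replicates of each group stayed close together. WT averaged 165 ± 22.4 CPM (SD, n = 3) and CKO averaged 41.5 ± 6.04 CPM (SD, n = 3), a level 3.99-fold lower. The log2 fold change was -1.97 (SE 0.19, 95% interval -2.40 to -1.55, limma adjusted p = 6.54e-04), which is rank 8 by p-value among all genes with a negative log2 fold change. The call rested on 640 reads in WT and 166 in CKO, and an exact two-sided permutation test gave p = 0.1, the smallest that 3 libraries against 3 allow. In bulk cartilage, fewer cells that express a gene and less RNA per cell cannot be told apart. The chondrocyte markers moved with it, with 10 of 10 lower in CKO, 8 of them past limma's adjusted threshold, and a median log2 fold change of -2.53. Of all genes tested 2.6% were called lower. The 6 genes of the perichondrium and fibroblast list were also lower, with a median of -0.79, and 1 of them, Col1a2, passed (log2 fold change -1.09, limma adjusted p = 0.0191). That list summed to 2201 to 3769 CPM in WT and 1010 to 1750 CPM in CKO. The part of both cell types in the Gpc3 result was not tested.

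Gpc3 lies on the minus strand of the X chromosome, from 52272426 to 52613950 on GRCm38 (GENCODE M21), directly beside Gpc4 (52053021 to 52165252, minus strand). No other annotated gene is near-identical to either of them, and no exon of Gpc3 overlaps an exon of another gene. The Gpc3 promoter is shown because Gpc3 is the gene of the family that fell, and the Sdc1 promoter because Sdc1 had the smallest p-value among the members that were higher. Both are the RefSeq bases before the start site on GRCm38.p6 that GENCODE M21 does not count as transcribed, for Gpc3 chrX:52613975-52614224 (minus strand, 250 bases) and for Sdc1 chr12:8771146-8771322 (plus strand, 177 bases). Capitals mark matches on either strand to the core site of hypoxia-inducible factors (ACGTG, or its other form with the first letter G, GCGTG), to the GC box (GGGCGG), to the TATA box (TATAAA) and to the SOX site (ACAAAG), where adjoining matches may run together.
Gpc3 promoter: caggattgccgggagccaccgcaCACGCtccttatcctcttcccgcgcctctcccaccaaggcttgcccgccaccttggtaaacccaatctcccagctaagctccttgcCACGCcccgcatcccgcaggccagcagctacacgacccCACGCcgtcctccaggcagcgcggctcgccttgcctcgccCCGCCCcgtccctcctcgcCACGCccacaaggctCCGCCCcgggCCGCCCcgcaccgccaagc
Sdc1 promoter: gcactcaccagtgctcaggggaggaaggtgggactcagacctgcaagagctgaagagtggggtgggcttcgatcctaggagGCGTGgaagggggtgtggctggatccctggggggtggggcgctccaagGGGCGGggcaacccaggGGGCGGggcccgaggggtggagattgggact

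The Gpc3 sequence held 4 matches to the G form of the hypoxia-inducible factor core and 3 to the GC box, all on the opposite strand, and none to the other motifs. In the Sdc1 stretch there was 1 match to the G form and 2 to the GC box. Of 32851 RefSeq promoters, 28.2% held the G form, 16.6% the A form of the same core, 32.7% the GC box, 16.5% the SOX site and 12.4% the TATA box within the 250 bases before the start. The GC content was 71.6% for Gpc3 and 68.4% for Sdc1, against a median of 52.4% over all these promoters. Such matches are descriptions of letters and do not show binding. RefSeq promoters were found for 6 of the 9 genes.

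The neighbour Gpc4, another glypican of the same gene cluster (ENSMUSG00000031119), did not pass the threshold. Its level was 86.3, 77.3 and 41.4 CPM in the libraries WT 1, 2 and 3, against 61.9, 41.9 and 67.6 CPM in the libraries CKO 1, 2 and 3. The groups overlapped, with WT 3 the lowest of the 6 libraries. The log2 fold change of Gpc4 was -0.22 (95% interval -0.87 to 0.44, limma adjusted p = 0.726), and the lower end of the interval stands for 0.546 of the WT level, above the whole interval of Gpc3. Hprt, a purine salvage gene on the other side of Gpc3, named after its values were seen, was at 173 to 308 CPM in WT and 347 to 433 CPM in CKO (log2 fold change 0.75, limma adjusted p = 0.0689).

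Gpc6 (ENSMUSG00000058571), a glypican whose loss causes the skeletal disorder omodysplasia in humans, is spread over a long stretch of chromosome 14 (116925315 to 117976544, plus strand). It was at 58.0, 67.5 and 68.4 CPM in the libraries WT 1, 2 and 3, against 57.8, 53.4 and 49.4 CPM in the libraries CKO 1, 2 and 3. The groups did not overlap, but WT 1 and CKO 1 were almost at the same level. Its log2 fold change was -0.27 (95% interval -0.68 to 0.14, limma adjusted p = 0.448), and its interval does not reach that of Gpc3. Gpc5, the glypican gene next to Gpc6, had 1 read in the 6 libraries together and was not tested.

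Gpc1 and Gpc2 had few reads, 56 and 15 in the 6 libraries together. Gpc1 (ENSMUSG00000034220; chromosome 1, 92831645 to 92860779, plus strand), the glypican also found in brain and muscle, was at 8.70, 4.50 and 7.60 CPM in the libraries WT 1, 2 and 3, against 6.19, 7.94 and 7.80 CPM in the libraries CKO 1, 2 and 3. The groups overlapped, with a log2 fold change of 0.10 (95% interval -0.71 to 0.92, limma adjusted p = 0.908). Gpc2 (ENSMUSG00000029510; chromosome 5, 138273655 to 138280005, minus strand), known from developing neurons, had 9 reads in all WT libraries, 7 of them in WT 2, and 6 reads in all CKO libraries. A change of Gpc2 was not detectable at this depth (log2 fold change -0.17, 95% interval -1.48 to 1.15, limma adjusted p = 0.904). Exons of Gpc1 overlap those of Ankmy1 on the opposite strand, which had 2 reads in all, and exons of Gpc2 overlap those of Gm43720 on the same strand, which had 1.

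Among the syndecans, Sdc1 was higher in each CKO library but did not pass the threshold over all genes. Syndecan-1 is the syndecan best known from epithelia and plasma cells. Sdc1 (ENSMUSG00000020592; chromosome 12, 8771323 to 8793715, plus strand) was at 60.9, 56.3 and 54.1 CPM in the libraries WT 1, 2 and 3, against 83.9, 103 and 78.0 CPM in the libraries CKO 1, 2 and 3. WT averaged 57.1 ± 3.48 CPM (SD, n = 3) and CKO averaged 88.4 ± 13.2 CPM (SD, n = 3), 1.55 times the WT level. The log2 fold change was 0.61 (SE 0.19, 95% interval 0.20 to 1.03), with limma adjusted p = 0.0859, and between 0.0760 and 0.220 over the 12 alternatives. CKO 2 was the highest library, and without it the log2 fold change was 0.50 (limma adjusted p = 0.0965). The near-identical gene Gm16407 is annotated for Sdc1 and could share its reads. Of 10 epidermal markers, Krt5, Krt14 and Cdh1 are not among the listed genes, and 3 could be tested. Of these Perp, a gene that p53 also induces, was called higher, as were 3.18% of all genes tested. Krt10 (log2 fold change 0.41, limma adjusted p = 0.484) and Trp63 (-0.23, limma adjusted p = 0.889) were not called. The summed level of the list was 28.7 to 60.8 CPM in WT and 141 to 196 CPM in CKO. Most of the CKO sum was Perp, at 8.45 to 18.8 CPM in WT and 97.0 to 145 CPM in CKO. The part of other cell types in the Sdc1 values was not tested.

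Sdc2 had the most reads of the 9 genes, and its CKO libraries lay on both sides of WT. Syndecan-2 is the syndecan of mesenchymal cells, among them chondrocytes and osteoblasts. Sdc2 (ENSMUSG00000022261; chromosome 15, 32920723 to 33034935, plus strand) was at 312, 354 and 283 CPM in WT 1, 2 and 3. In CKO 1 and CKO 3 it was at 664 and 663 CPM, above every WT library, and in CKO 2 at 178 CPM, below every WT library. These values stand on 247 to 965 reads per library. Over all libraries WT averaged 317 ± 35.8 CPM (SD, n = 3) and CKO averaged 502 ± 280.0 CPM (SD, n = 3), and the log2 fold change was 0.44 (SE 0.42, 95% interval -0.49 to 1.37, limma adjusted p = 0.594). Without CKO 2 it was 1.07 (SE 0.14, limma adjusted p = 0.00107), where 10.8% of 12055 genes were called in that fit. Without CKO 1 it was 0.13 (limma adjusted p = 0.919) and without CKO 3 also 0.13 (limma adjusted p = 0.919).

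CKO 2 lay at least 2-fold below both other CKO libraries in 2 of 4 tested genes of the hypertrophic list, Mmp13 and Ibsp. The same held for 4 of 6 of the osteoblast list, Bglap, Bglap2, Dmp1 and Alpl, all named after their values were seen. Dmp1 had only 3, 1 and 3 reads in CKO 1, 2 and 3. Among the 5022 genes that averaged 20 CPM or more, CKO 2 lay that far below both in 222, on log2(CPM + 1). Mmp13, the collagenase of late hypertrophic chondrocytes, was at 2155, 377 and 2301 CPM in CKO 1, 2 and 3, against 257 to 650.5 CPM in WT. Ibsp, which encodes bone sialoprotein, was at 708, 83.0 and 808 CPM in CKO 1, 2 and 3, against 82.5 to 129 CPM in WT. Bglap2, an osteocalcin gene of osteoblasts, was at 289.5, 35.4 and 257 CPM in CKO 1, 2 and 3, against 30.4 to 69.0 CPM in WT. Each of these 3 genes thus had in CKO 2 a level within its WT range, with CKO 1 and CKO 3 several times higher. Other genes of the same lists did not divide the CKO libraries this way. Spp1, which encodes osteopontin, was at 11114, 11877 and 12045 CPM in CKO 1, 2 and 3, and Col10a1, the collagen of hypertrophic cartilage, was highest in CKO 2, at 24.8, 45.5 and 16.5 CPM. Col1a1, the main collagen of bone, was at 245, 240.4 and 269 CPM, and Sp7, an osteoblast transcription factor, at 4.13, 4.33 and 4.33 CPM. Sp7 had only 6, 6 and 5 reads in CKO 1, 2 and 3. The hypertrophic list summed to 14002, 12384 and 15170 CPM in CKO 1, 2 and 3, most of it Spp1, and to 1437 to 4574 CPM in WT. The osteoblast list as a whole (6 of 6 genes with reads in CKO 2) summed to 607, 292 and 599.7 CPM in CKO 1, 2 and 3 and to 358, 462 and 599 CPM in WT 1, 2 and 3. The Y-linked genes Ddx3y, Eif2s3y and Uty, chosen after the data were seen, had no read in CKO 2 and WT 1 and at least 5.50 CPM in each of the other libraries, and Kdm5d had 1 read in WT 1 and 0 in CKO 2. In WT 1, Sdc2 lay between WT 2 and WT 3. The part of bone-forming cells and of sex in the Sdc2 values was not tested.

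**Figure D2:**
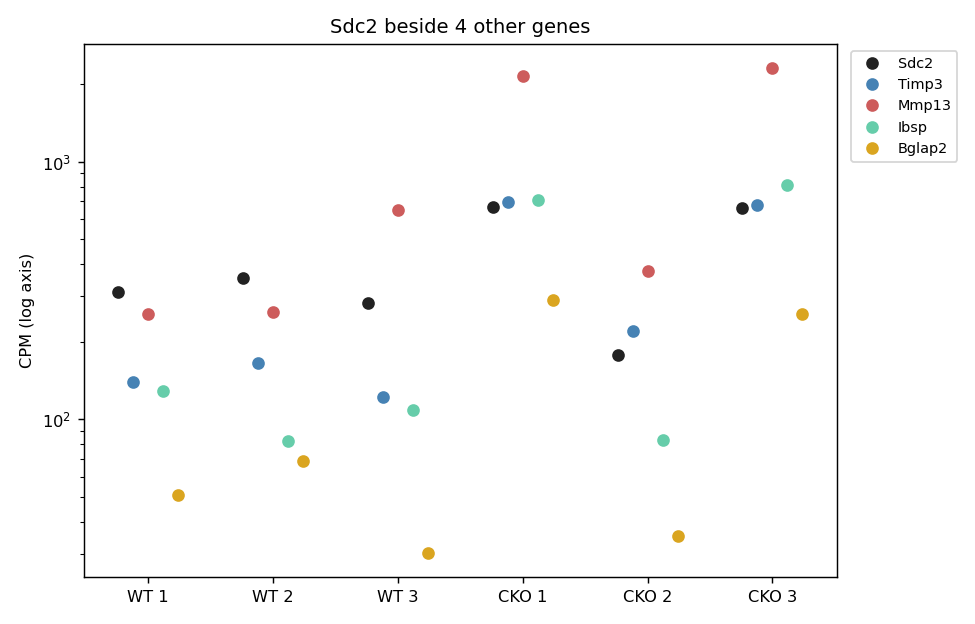
CPM (log axis) of Sdc2 and of Timp3, Mmp13, Ibsp and Bglap2 in each of the 6 libraries, with the points of a library set side by side. The genes beside Sdc2 were chosen after their values were seen. In CKO 2 all 5 genes lie below their values in CKO 1 and CKO 3, and Sdc2 at 178 CPM lies below all of its WT values. Spp1, Col10a1, Col1a1 and Sp7 of the hypertrophic and osteoblast lists are not shown and did not divide the CKO libraries this way.

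Sdc4, the syndecan of focal adhesions (ENSMUSG00000017009; chromosome 2, 164424247 to 164443887, minus strand), was at 22.5, 27.0 and 22.8 CPM in the libraries WT 1, 2 and 3, against 38.5, 32.5 and 22.5 CPM in the libraries CKO 1, 2 and 3. CKO 3 lay within the WT range, and the log2 fold change was 0.33 (95% interval -0.24 to 0.91, limma adjusted p = 0.508). Sdc3 (ENSMUSG00000025743; chromosome 4, 130792537 to 130826319, plus strand), which has been linked to the early, proliferating cells of limb cartilage and to nerve cells, had the fewest reads of the syndecans. It was at 8.70, 9.01 and 6.76 CPM in the libraries WT 1, 2 and 3, against 1.38, 3.61 and 6.07 CPM in the libraries CKO 1, 2 and 3. Every CKO library was lower, but CKO 3 came within 1 read of WT 3, with 7 against 8 reads. The summed reads were 32 in WT, or 8.21 CPM with an exact 95% Poisson interval of 5.62 to 11.6, and 14 in CKO, or 3.51 CPM with an interval of 1.92 to 5.88. These intervals cover counting error only. The log2 fold change of -1.09 (95% interval -2.11 to -0.076) had an unadjusted p = 0.0375 and limma adjusted p = 0.202, and without CKO 1 it was -0.67 (limma adjusted p = 0.473). Exons of Sdc3 overlap those of 2 antisense genes that the table does not list.

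**Figure D3:**
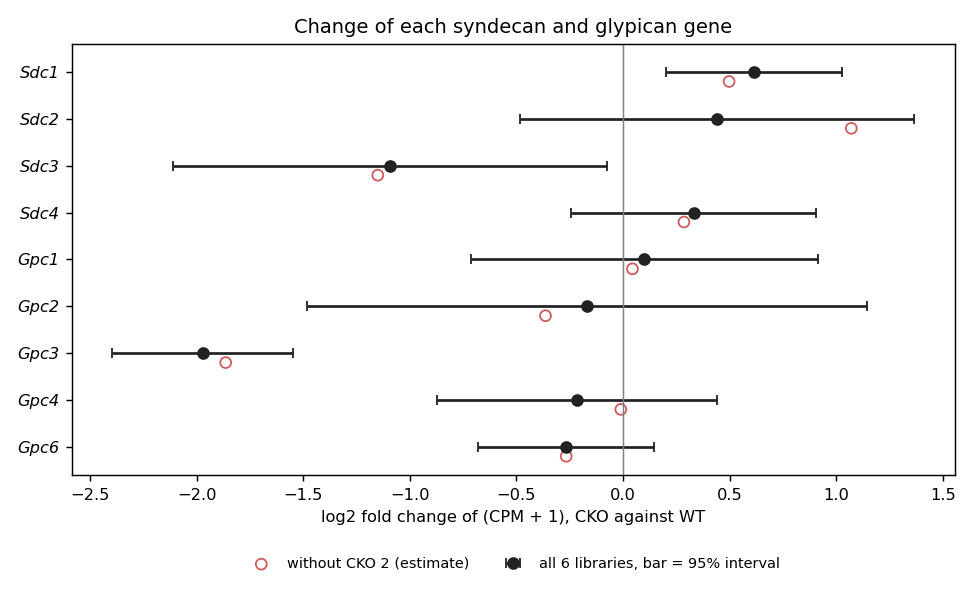
Log2 fold change of CPM + 1, CKO against WT, for each gene (filled points, bars: limma's 95% interval over all 6 libraries) and the estimate without CKO 2 (open circles). The interval of Gpc3, -2.40 to -1.55, is the one that lies wholly below -1, and the estimate for Sdc2 moves from 0.44 to 1.07 without CKO 2.

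To compare levels between genes, CPM was divided by the summed exon length of the gene in GENCODE M21. On this scale of CPM per kb of exon, Sdc2 led in WT at 89.7 ± 10.1 (SD, n = 3), followed by Gpc3 at 61.5 ± 8.32 and Gpc4 at 25.8 ± 8.95. Sdc1 at 15.0 ± 0.913, Gpc6 at 10.1 ± 0.901 and Sdc4 at 9.46 ± 0.994 came next, and Sdc3, Gpc1 and Gpc2 were at 1.36, 1.34 and 0.532. The WT ranges of neighbours in this order overlapped for Gpc4 and Sdc1, for Gpc6 and Sdc4, for Sdc3 and Gpc1 and for Gpc1 and Gpc2. In CKO the order was Sdc2 at 142 ± 79.4, Sdc1 at 23.2 ± 3.46, Gpc4 at 21.5 ± 5.10, Gpc3 at 15.4 ± 2.25, Sdc4 at 12.2 ± 3.17 and Gpc6 at 8.33 ± 0.651. From Sdc1 to Gpc6 each neighbour overlapped the next, whereas in WT the range of Gpc3 overlapped that of no neighbour.

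The 5 glypicans together made 101, 97.3 and 98.9 CPM per kb in the libraries WT 1, 2 and 3, against 51.5, 39.3 and 50.4 CPM per kb in the libraries CKO 1, 2 and 3. All CKO sums lay below all WT sums. The 4 syndecans together made 115, 127 and 105 CPM per kb in the libraries WT 1, 2 and 3, against 226, 91.0 and 218 CPM per kb in the libraries CKO 1, 2 and 3, and their sum followed Sdc2. Syndecans were 51.4% to 56.7% of the summed level per kb in WT and 69.8% to 81.4% in CKO. Within the glypicans, Gpc3 made 57.1% to 71.8% of the summed level per kb in WT and 30.7% to 34.3% in CKO, where Gpc4 made 40.2% to 50.6%. These shares describe the libraries and were not tested.

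**Figure D4:**
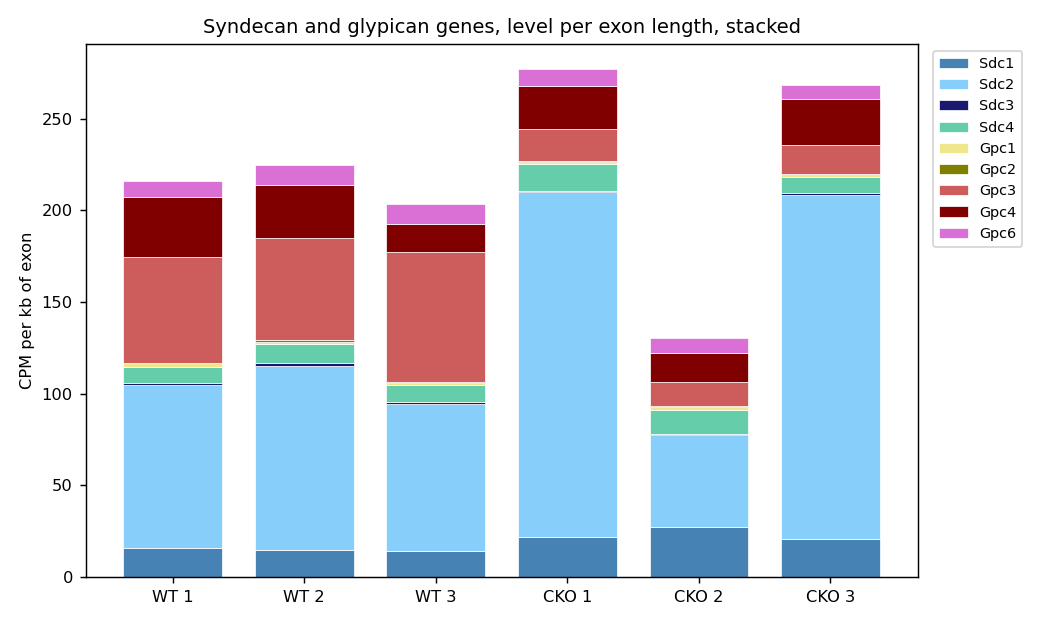
Stacked level per exon length (CPM per kb of exon, axis from 0) of the 9 genes in each library. The Gpc3 layer shrinks from WT to all 3 CKO libraries, and the Sdc2 layer is tall in CKO 1 and CKO 3 and short in CKO 2.

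By the distance between log2(CPM + 1) profiles centred on their means, the 2 genes most like Gpc3 among 5021 others that averaged 20 CPM or more were Mia and Igfbp7. The root mean square distance over the 6 libraries was 0.185 for Mia and 0.201 for Igfbp7, in log2 units. Mia, a small protein secreted by chondrocytes, fell from 1220 to 263 CPM on average, and Igfbp7, which encodes an IGF-binding protein, from 43.4 to 10.4 CPM. The 6 points of each profile share the division into 2 groups.

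The list for the linker and the polymerisation of the chain is not limited to enzymes specific to heparan sulfate. All 12 of its genes could be tested. Of these 11 had a negative log2 fold change and 1, Pxylp1, a positive one, with a median of -0.35 against 0.013 over all genes tested. Of the 12, 1 gene, Extl1, passed limma's adjusted threshold, and it stayed past it in each of the 12 alternatives. Of all genes tested 2.6% were called lower. Without CKO 2, where 10.8% of all genes tested were called, 3 of the 12 were called lower, Extl1, B3gat3 (log2 fold change -0.93) and Ext2 (-1.27). Extl1, an exostosin-like glycosyltransferase, was at 29.7, 30.8 and 27.9 CPM in the libraries WT 1, 2 and 3, against 8.25, 9.38 and 9.53 CPM in the libraries CKO 1, 2 and 3. Its log2 fold change was -1.60 (SE 0.25, limma adjusted p = 0.00665), and the groups were well apart. The genes of the copolymerase, named for that role, had log2 fold changes of -0.038 for Ext1 (95% interval -1.11 to 1.03, limma adjusted p = 0.975) and -0.88 for Ext2 (95% interval -1.66 to -0.11, limma adjusted p = 0.177).

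Of the 16 genes for sulfation and epimerisation of the chain, 7 could be tested and 0 passed limma's adjusted threshold, while 1 had an unadjusted p under 0.05, as did 21.3% of all genes tested. Neither edgeR nor DESeq2 called any of the genes it tested here. The most reads were on Hs6st2, a 6-O-sulfotransferase at 28.7 to 45.8 CPM in WT and 28.1 to 46.1 CPM in CKO, and Glce, the epimerase, at 12.8 to 22.0 CPM in WT and 7.80 to 11.0 CPM in CKO. Among the genes that trim or release the proteoglycans outside the cell, 3 of 5 could be tested and 0 passed, while 2 had an unadjusted p under 0.05 (21.3% of all genes tested) and edgeR and DESeq2 called 0. Sulf1 and Sulf2, the sulfatases that remove 6-O-sulfate from finished chains, had log2 fold changes of opposite sign. Sulf1 was at 26.1, 48.0 and 46.5 CPM in the libraries WT 1, 2 and 3, against 88.0, 56.3 and 89.3 CPM in the libraries CKO 1, 2 and 3, with a log2 fold change of 0.96 (limma adjusted p = 0.0789). Every CKO library was higher, CKO 2 the least so. Without CKO 2 the limma adjusted p was 0.0184, in a fit that called 10.8% of all genes tested. Sulf2 was at 43.5 to 63.8 CPM in WT and 26.0 to 40.4 CPM in CKO (log2 fold change -0.58, limma adjusted p = 0.209).

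Proteins other than syndecans and glypicans can carry heparan sulfate, and 7 such genes were listed. Of these 2 passed limma's adjusted threshold, both higher in CKO, where 3.18% of all genes tested were called higher. They were Cd44, the hyaluronan receptor, and Nrp1, a co-receptor of VEGF and semaphorins. Cd44 went from 13.5 to 15.9 CPM in WT to 35.5 to 39.9 CPM in CKO, 1.35 higher on the log2 scale (limma, adjusted p = 0.00936). Its adjusted p was 0.0501 without WT 2 and 0.0526 without CKO 1. Nrp1 had a log2 fold change of 1.45 (limma adjusted p = 0.0392), with CKO 2 at 18.8 CPM against 48.1 and 38.1 CPM in CKO 1 and CKO 3, and of the 6 fits without 1 library it passed in 1, the one without CKO 2. With the replicate block Nrp1 did not pass (limma adjusted p = 0.0737). The gene of the large matrix proteoglycan perlecan, Hspg2, was at 97.1 to 117 CPM in WT and 33.8 to 85.9 CPM in CKO (log2 fold change -0.97, limma adjusted p = 0.0859). Without CKO 2 it was called lower (-1.30, limma adjusted p = 0.00405), in a fit that called 10.8% of all genes tested.

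Of the proteases that can shed syndecans and their inhibitor, 7 of 8 genes could be tested. Of these 1 passed, higher in CKO, as did 3.18% of all genes tested. Timp3, the inhibitor of ADAM17 and other sheddases, was at 140, 166 and 122 CPM in the libraries WT 1, 2 and 3, against 695, 219 and 676 CPM in the libraries CKO 1, 2 and 3. All CKO libraries were higher, but CKO 2 far less than the others. For Sdc2, CKO 2 was also the lowest CKO library, but there it lay below every WT library. The log2 fold change of Timp3 was 1.72 (limma adjusted p = 0.0262), and 2.27 without CKO 2 (limma adjusted p = 1.82e-05), but each of the other fits without 1 library left it above 0.05 (limma's adjusted p from 0.0709 to 0.112). Sdcbp encodes syntenin, which binds the cytoplasmic tail of syndecans. It was at 352 to 409 CPM in WT and 509 to 542 CPM in CKO, which is 0.44 on the log2 scale (limma, adjusted p = 0.0949), and 0 of the 9 genes for cytoplasmic partners passed with limma, edgeR or DESeq2. Unadjusted p-values under 0.05 were found for 2 of them, both higher in CKO, which is close to the 21.3% of all genes tested. Pdcd6ip, which encodes the syntenin partner Alix, was at 50.7 to 80.3 CPM in WT and 57.8 to 152 CPM in CKO (log2 fold change 0.55, limma adjusted p = 0.360), with CKO 2 the highest library.

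In the focal adhesion list 2 of 10 genes passed, both higher in CKO, where 3.18% of all genes tested were called higher. Fn1 encodes fibronectin, the matrix ligand of syndecan-4, and went from 929 to 1496 CPM in WT to 1778 to 2796 CPM in CKO (log2 fold change 0.98, limma adjusted p = 0.0267). Actn1, which encodes an alpha-actinin that links syndecan-4 to actin, went from 15.0 to 21.1 CPM in WT to 31.2 to 39.2 CPM in CKO (log2 fold change 1.0, limma adjusted p = 0.0414). Each of them passed in 2 of the 6 fits without 1 library, those without WT 3 and without CKO 2, and the adjusted p of the others was up to 0.130 for Fn1 and 0.157 for Actn1. DESeq2 did not call Actn1, and neither did the fit with the replicate block. Without CKO 2 the integrin gene Itgb1 was also called, lower in CKO (log2 fold change -0.60, limma adjusted p = 0.0464). A further list held 21 genes, namely ligands that bind heparan sulfate, their receptors and signalling genes of the same pathways such as Gli1 and Smo. Of these 18 could be tested and 1 passed, higher in CKO, against the same 3.18%. Without CKO 2 there were 3 calls, Hbegf and Bmp4 higher (1.82 and 1.21 on the log2 scale) and the hedgehog-binding inhibitor gene Hhip lower (-2.57). In that fit 10.8% of all genes tested were called. Hbegf, the heparin-binding ligand of the EGF receptor, was at 14.5, 14.3 and 7.60 CPM in the libraries WT 1, 2 and 3, against 48.8, 113 and 39.0 CPM in the libraries CKO 1, 2 and 3. The rise was 2.27 in log2 units (SE 0.40, limma adjusted p = 0.0108) and passed in each of the 12 alternatives. Of the FGF receptors Fgfr3 had the most reads and a log2 fold change of -0.29 (limma adjusted p = 0.368). Ihh, the hedgehog ligand of the growth plate, had at most 2 reads per library and was not tested. The other lists held genes on both sides of 0. The median log2 fold change was -0.10 for the other carriers (3 higher, 4 lower) and -0.17 for sulfation and epimerisation (3 higher, 4 lower). For trimming and release (2 higher, 1 lower) it was 0.85, the value of Notum, which had 2 reads in WT and 7 in CKO. That median was 0.15 with edgeR (2 genes tested) and -0.60 with DESeq2 (5 genes tested). For the shedding proteases and their inhibitor the median was 0.53 (6 higher, 1 lower). There Timp3, the inhibitor, was among the higher, and Mmp2, the protease with the highest mean level, was the lower one. The median was 0.44 for the cytoplasmic partners (6 higher, 3 lower) and 0.099 for focal adhesion (6 higher, 4 lower). It was -0.16 for the ligands, receptors and signalling genes (8 higher, 10 lower).

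**Figure D5:**
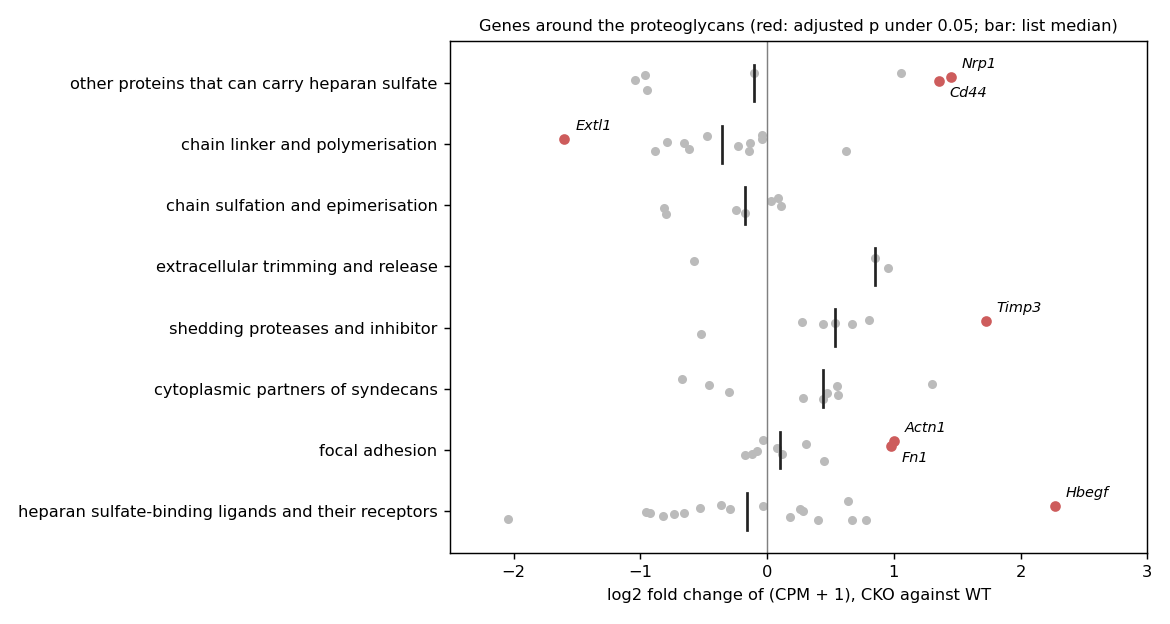
Log2 fold change of CPM + 1, CKO against WT, of each tested gene in 8 lists of genes that build, trim, shed or bind heparan sulfate proteoglycans (points, spread vertically for visibility), with a bar at each list's median. The 7 red and named genes passed limma's adjusted p under 0.05, 6 of them higher in CKO and Extl1 lower. Of all genes tested 3.18% were called higher and 2.6% lower.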

How the data were processed

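Gene levels were deposited by the authors as CPM, already scaled to each library's reads on genes, from RNA of cartilage extracted with TRIzol and sequenced as a stranded mRNA library. The submitters' processing notes name cutadapt 2.5, HISAT2 and featureCounts 1.6.3. The genome build, the annotation and the strand setting are not given in the sources used here. Whole reads were recovered from the CPM (100% of values within 0.01 reads). Genes that averaged 1 CPM or more were tested with limma 3.58.1 (R 4.3.3, trend) on log2(CPM + 1), with Benjamini-Hochberg adjustment over all 12155 of them, and the fit was tested on simulated data. Alternatives were edgeR 4.0.16 and DESeq2 1.42.0 on the recovered reads, a pseudocount of 0.1, no filter, TMM scaling, a replicate block and each library left out. Named were the 9 genes, Hnrnpk, the called genes of each list (at most 4, or the 2 with the highest CPM where none was called) and the 2 nearest profiles. Others (such as Pxylp1, Ext1, Ext2, Hspg2, Fgfr3, Ihh, Hprt, Gpc5, Perp, Col1a2, the Y-linked genes, those beside Sdc2 and those called without CKO 2 alone) were named after their values were seen. The members and lists were chosen with earlier results of these data known.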

Additional observations from a re-analysis of the deposited data

How the results depend on the processing

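Gpc3 kept its direction and its side of the threshold in all 12 alternatives (log2 fold change -2.07 to -1.86, adjusted p of limma, edgeR or DESeq2 1.31e-11 to 0.00924). The number of the 9 genes past the adjusted threshold was 1, and 1 to 2 when each library was left out, with Sdc2 the gene added without CKO 2. By the study's criterion it was 2, but 1 with edgeR, where 7 of the 9 were tested, 1 with DESeq2, 1 with the replicate block and 1 to 3 when each library was left out, with 3 without CKO 2. The fold changes of Gpc1 and Gpc2, which had few reads, turned sign for Gpc1 without WT 2 (log2 fold changes -0.14 to 0.27 when each library was left out) and for Gpc2 without WT 2 and without CKO 3 (-0.49 to 0.44, with 0.017 without CKO 3), and the cause was not tested. Over all genes limma called 703, against 1298 without CKO 2, 212 to 543 without each of the other libraries, 385 with the replicate block and 737 of 7704 with edgeR. The labels number the replicates in both groups, and the deviations of same-numbered libraries from their group means correlated at 0.038, -0.13 and -0.10. With 3 libraries per group these values cannot tell whether same-numbered libraries share a litter or a preparation. The labels do not say so either. At 1153871 to 1454094 reads per library, 3 reads stand for 2.06 to 2.60 CPM, and the SE of the log2 fold change was largest for Gpc2 (0.59), Sdc3 (0.46) and Sdc2 (0.42) among the 9 genes.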
